A study of Homo sapiens with 8 samples.

Results

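The genes described are 4 transcription factors and 4 coregulators that work with the androgen receptor: FOXA1, HOXB13, GATA2, GRHL2, NCOA1, NCOA2, NCOA3 and NCOR1. They were chosen by name, with no measured value in the rule although earlier results of these data were known, and each matched 1 row of the 58884 gene rows in the deposited table. The RNA came from C4-2, an established human line of castration-resistant prostate cancer that is propagated as 1 line. Cells grew in RPMI medium with 10% FBS and received either the solvent DMSO (4 libraries) or 1 µM DTHIB, also called E12 (4 libraries), for 48 h. By the series title, DTHIB inhibits HSF1 directly, and HSF1 is the master activator of heat shock genes. Poly(A) RNA was sequenced, and the comparison asks which transcripts differed in level between DTHIB and its solvent.

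The members lie on 6 chromosomes of GRCh38. FOXA1 (ENSG00000129514) occupies chr14:37589984-37596059 on the minus strand, HOXB13 (ENSG00000159184) chr17:48724763-48729178 on the minus strand and GATA2 (ENSG00000179348) chr3:128479427-128493185 on the minus strand. GRHL2 (ENSG00000083307) occupies chr8:101492432-101669726 on the plus strand. Among the coregulators, NCOA1 (ENSG00000084676) lies at chr2:24491914-24770702 on the plus strand and NCOA2 (ENSG00000140396) at chr8:70109762-70403805 on the minus strand. NCOA3 (ENSG00000124151) lies at chr20:47501902-47656877 on the plus strand and NCOR1 (ENSG00000141027) at chr17:16029157-16218185 on the minus strand. All values are for whole genes, so promoters, isoforms and splice forms were not separated.

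The androgen receptor is a hormone-activated transcription factor on which luminal prostate cells and most prostate cancers depend. Pioneer factors such as FOXA1 open compact chromatin so that the receptor can bind its enhancers, and GATA2, HOXB13 and GRHL2 share many of those enhancers. Once bound to DNA, the receptor recruits p160 coactivators, encoded by NCOA1, NCOA2 and NCOA3, which in turn bring in histone acetyltransferases. NCOR1 is the scaffold of a corepressor complex that carries the histone deacetylase HDAC3 and dampens transcription by nuclear receptors.

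Promoter sequence was matched from RefSeq (GRCh38.p14) for 5 of the 8 members: FOXA1, GATA2, NCOA1, NCOA3 and NCOR1. Each window covered 300 bases, from 250 before to 50 after an annotated start. The stretches upstream of 4 starts are shown, outside annotated exons and 5′ to 3′ in the direction of transcription, because they belong to a member that rose (FOXA1), a member that fell (NCOA1) and a pair that did not pass the test (GATA2 and NCOA3). They are chr14:37595349-37595499 (minus strand) for FOXA1, chr2:24491004-24491253 (plus strand) for the first of 3 NCOA1 starts, chr3:128493202-128493451 (minus strand) for the first GATA2 start and chr20:47501637-47501886 (plus strand) for NCOA3. The FOXA1 stretch lies inside the annotated gene span and does not reach the start used, chr14:37595249. Of the 250 bases before that start, 99 lie in annotated exons and are not shown. Capitals mark the only match to a searched motif in the 4 stretches, a forkhead core read on the opposite strand.
FOXA1: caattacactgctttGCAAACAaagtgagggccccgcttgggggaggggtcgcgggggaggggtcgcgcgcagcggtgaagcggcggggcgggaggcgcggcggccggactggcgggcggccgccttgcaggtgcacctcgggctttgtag
NCOA1: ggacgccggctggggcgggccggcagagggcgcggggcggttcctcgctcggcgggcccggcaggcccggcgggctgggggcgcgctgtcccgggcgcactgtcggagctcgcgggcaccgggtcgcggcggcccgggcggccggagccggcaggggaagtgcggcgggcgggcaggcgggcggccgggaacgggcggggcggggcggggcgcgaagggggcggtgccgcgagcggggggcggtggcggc
GATA2: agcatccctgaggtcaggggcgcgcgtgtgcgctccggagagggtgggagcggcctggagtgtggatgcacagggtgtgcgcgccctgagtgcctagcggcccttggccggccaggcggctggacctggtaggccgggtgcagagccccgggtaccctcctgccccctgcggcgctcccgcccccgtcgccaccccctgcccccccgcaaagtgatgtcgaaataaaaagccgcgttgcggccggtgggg
NCOA3: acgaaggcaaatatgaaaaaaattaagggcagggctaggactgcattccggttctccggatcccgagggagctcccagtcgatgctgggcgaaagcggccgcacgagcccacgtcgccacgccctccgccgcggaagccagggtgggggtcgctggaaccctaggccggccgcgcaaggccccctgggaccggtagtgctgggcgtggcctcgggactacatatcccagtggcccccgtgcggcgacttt

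Both strands of every window were searched for 8 motifs. FOXA1 and NCOA3 had 1 window each, GATA2 and NCOR1 had 2 each, and NCOA1 had 3. The heat shock element core, searched as GAANNTTC or TTCNNGAA, was found in none of the windows of these 5 genes and in 13.5% of all 35116 RefSeq promoter windows. The forkhead core TGTTTNC was found in the FOXA1 window, in the third NCOA1 window and in the second NCOR1 window, against 18% of all windows. The starts of the third NCOA1 and second NCOR1 windows, chr2:24584477 and chr17:16194639, lie inside the annotated gene spans. Their GC content was 28.7% and 26.3%, against 66.7% to 85.7% in the other windows of these 5 genes. AGAACA, a part of the androgen response element and not the whole element, was found in the first NCOA1 window, downstream of the start, against 14.8% of all windows. The GATA core (AGATAA or TGATAA) matched the third NCOA1 window and 16.3% of all windows. The HOXB13 core CAATAAA matched the second NCOR1 window and 4% of all windows. The grainyhead core AACNGGTT, the ATF4 element TGATGNAA and the E2F core (TTTCGCGC, TTTGGCGC, TTTCCCGC or TTTGGCGG) had no match in these windows and were present in 1.73%, 3.62% and 3.35% of all windows. These matches describe letters in a window only.

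Whole reads recovered from the normalized counts summed to 29499458 to 30926053 per DMSO library and 27229291 to 29159387 per DTHIB library. Across all genes, libraries of 1 group correlated at 0.993 to 0.994 and libraries of different groups at 0.973 to 0.981, and no 2 libraries agreed within sampling noise. Summed luminal prostate markers ranged from 175994 to 179136 normalized counts in DMSO and from 227165 to 230843 in DTHIB. Of these markers, KLK3, FOLH1, TMPRSS2, ACP3 and STEAP2 rose, KRT8 and KRT18 fell, and SLC45A3 did not pass. Basal, neuroendocrine, blood and endothelial markers summed to at most 193 normalized counts in any library, with KRT5 and TP63 near 0. The fibroblast and muscle list summed to 979 to 1090 in DMSO and 1216 to 1456 in DTHIB, nearly all of it COL1A1. Of these lists, 5 of 8 luminal genes rose and 2 fell. The 8 other tested markers gave 2 that rose (SYP and COL1A1), 3 that fell (KRT15, LYZ and ACTA2) and 3 that did not pass. By the same test, described below, 64.6% of all tested genes were called (31.0% higher and 33.7% lower). KLK3, TMPRSS2, SLC45A3 and ACP3 are also counted in the androgen-induced list below. The part of all these cell type markers in the results below was not tested. In bulk RNA, a smaller number of expressing cells and less transcript per cell cannot be told apart.

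Of the 8 members, 5 passed the test between DTHIB and DMSO: FOXA1 and NCOA2 rose, and HOXB13, NCOA1 and NCOR1 fell. All changes were small, from a fall of 13.8% to a rise of 24.6% in the mean normalized count. The test was limma on log2(normalized count + 1) with Benjamini-Hochberg adjustment over all 17194 tested genes at a threshold of 0.05, and it called 64.6% of those genes (31.0% higher and 33.7% lower). The 62.5% of members called is close to that background, so the count itself is not a result about these genes. The median log2 fold change was 0.01 over the members and -0.01 over all tested genes. The p-values measure the spread between libraries, which may be technical, since the labels do not say whether replicates were separate cultures. Under quantile normalization 5 members again passed, but 4 were higher and 1 lower, against 2 higher and 3 lower with the deposited scaling, and 62.7% of all genes were called. With edgeR and with DESeq2 on the recovered reads 4 members passed, where 64.7% and 59.9% of all genes did.

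**Figure D1:**
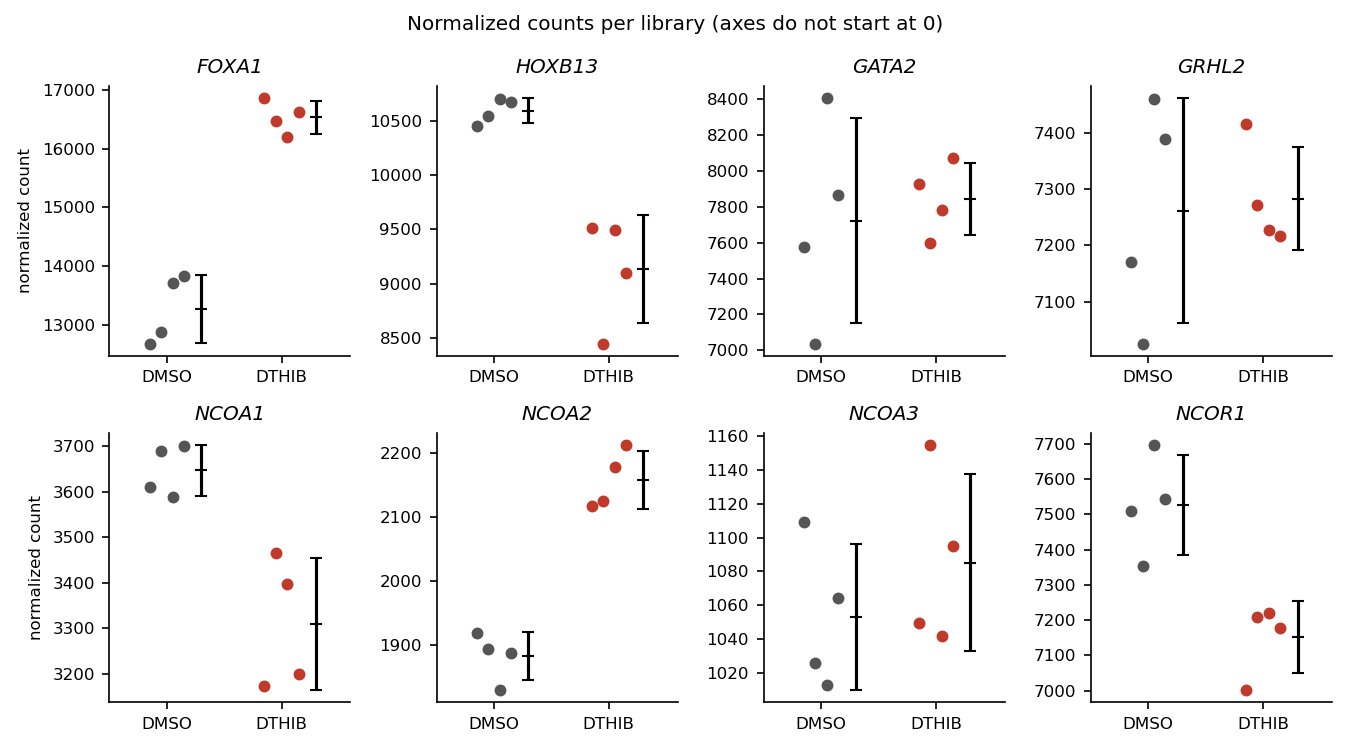
DESeq2-normalized counts (vertical axis, not starting at 0) of the 8 members in each of 4 DMSO and 4 DTHIB libraries, with the group means. The 4 DTHIB values of FOXA1 and NCOA2 lie above, and those of HOXB13, NCOA1 and NCOR1 below, all 4 DMSO values.

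FOXA1, the forkhead pioneer factor, had the largest change of the 8 members. Its normalized counts were 12678, 12875, 13719 and 13825 in DMSO and 16862, 16468, 16200 and 16622 in DTHIB. Every DTHIB library was above every DMSO library. The mean rose from 13274 ± 582 to 16538 ± 278 (SD, n = 4 each), a log2 fold change of 0.32 (limma: SE 0.031, adjusted p = 1.29e-07). Leaving out any 1 library kept the log2 fold change between 0.30 and 0.34.

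HOXB13, a homeodomain factor of the posterior HOX group that marks the prostate lineage, fell. Its normalized counts were 10454, 10548, 10702 and 10675 in DMSO and 9510, 8446, 9493 and 9099 in DTHIB. The 4 DTHIB libraries lay below all DMSO libraries and were more spread out. The mean went from 10595 ± 116 to 9137 ± 498 (SD, n = 4 each), a log2 fold change of -0.22 (limma: SE 0.034, adjusted p = 3.48e-05).

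GATA2, a zinc finger factor that binds receptor enhancers, did not pass the test. Its normalized counts were 7578, 7037, 8403 and 7867 in DMSO and 7924, 7597, 7784 and 8070 in DTHIB. The groups overlapped, with the lowest and the highest value both in DMSO. The log2 fold change was 0.03, with a 95% interval from -0.06 to 0.11 (limma adjusted p = 0.613).

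GRHL2, a grainyhead factor that maintains epithelial genes, also did not pass the test. Its normalized counts were 7171, 7025, 7462 and 7390 in DMSO and 7416, 7273, 7228 and 7216 in DTHIB. All 4 DTHIB values fell within the DMSO range. The log2 fold change was 0.0046, with a 95% interval from -0.05 to 0.06 (limma adjusted p = 0.894). Quantile normalization moved it to 0.07 with an adjusted p of 0.0265, which is a call.

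The 3 p160 coactivator genes did not move as 1 group: NCOA1 fell, NCOA2 rose and NCOA3 did not pass the test. NCOA1, also known as SRC-1, had normalized counts of 3610, 3689, 3589 and 3701 in DMSO and 3174, 3467, 3397 and 3200 in DTHIB. Its groups did not overlap. The mean went from 3647 ± 56.0 to 3309 ± 145 (SD, n = 4 each), a log2 fold change of -0.14 (limma: SE 0.033, adjusted p = 0.00138). Quantile normalization ended this call, with a log2 fold change of -0.06 and an adjusted p of 0.151.

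NCOA2, also known as TIF2 or GRIP1, had normalized counts of 1918, 1893, 1829 and 1888 in DMSO and 2116, 2124, 2177 and 2212 in DTHIB. Every DTHIB value exceeded every DMSO value. The mean rose by 14.6%, from 1882 ± 37.7 to 2157 ± 45.5 (SD, n = 4 each), and the log2 fold change was 0.20 (limma: SE 0.032, adjusted p = 4.43e-05).

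NCOA3, also known as AIB1 and amplified in some breast cancers, had normalized counts of 1109, 1026, 1013 and 1064 in DMSO and 1049, 1155, 1042 and 1095 in DTHIB. The groups overlapped over most of their range. The log2 fold change was 0.04, with a 95% interval from -0.05 to 0.14 (limma adjusted p = 0.411). Leaving out 1 library moved it between 0.01 and 0.07, and quantile normalization moved it to 0.12 with an adjusted p of 0.0389.

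NCOR1 fell by the least among the members that passed. Its normalized counts were 7510, 7354, 7697 and 7544 in DMSO and 7002, 7208, 7222 and 7178 in DTHIB. The groups did not overlap, although the lowest DMSO and the highest DTHIB library lay close together. The mean went from 7526 ± 141 to 7152 ± 102 (SD, n = 4 each), a log2 fold change of -0.07 (limma: SE 0.027, adjusted p = 0.0229). The direction held but the call was lost with no filter on low counts (adjusted p = 0.0526), with edgeR (0.051), with DESeq2 (0.0558) and with quantile normalization (0.544). It was also lost without DMSO replicate 3 (0.0809) or without DTHIB replicate 1 (0.0594). Removal of each library's trend with transcript length and GC content gave a larger fall, -0.15 (adjusted p = 0.000232).

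Non-overlapping groups were seen for 5 of the 8 members, against 57.9% of all tested genes. The 2 members wholly above DMSO stand beside 27.1% of all genes, and the 3 wholly below beside 30.8%. In the authors' deposited table the same 5 members had an adjusted p under 0.05, where 43.5% of the 23662 genes with an adjusted p did. The authors' deposited table gives log2 fold changes of 0.32 for FOXA1, -0.21 for HOXB13, -0.14 for NCOA1, 0.20 for NCOA2 and -0.07 for NCOR1. It gives 0.02 for GATA2, 0.0043 for GRHL2 and 0.04 for NCOA3. That table and the normalized counts come from the same 8 libraries.

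**Figure D2:**
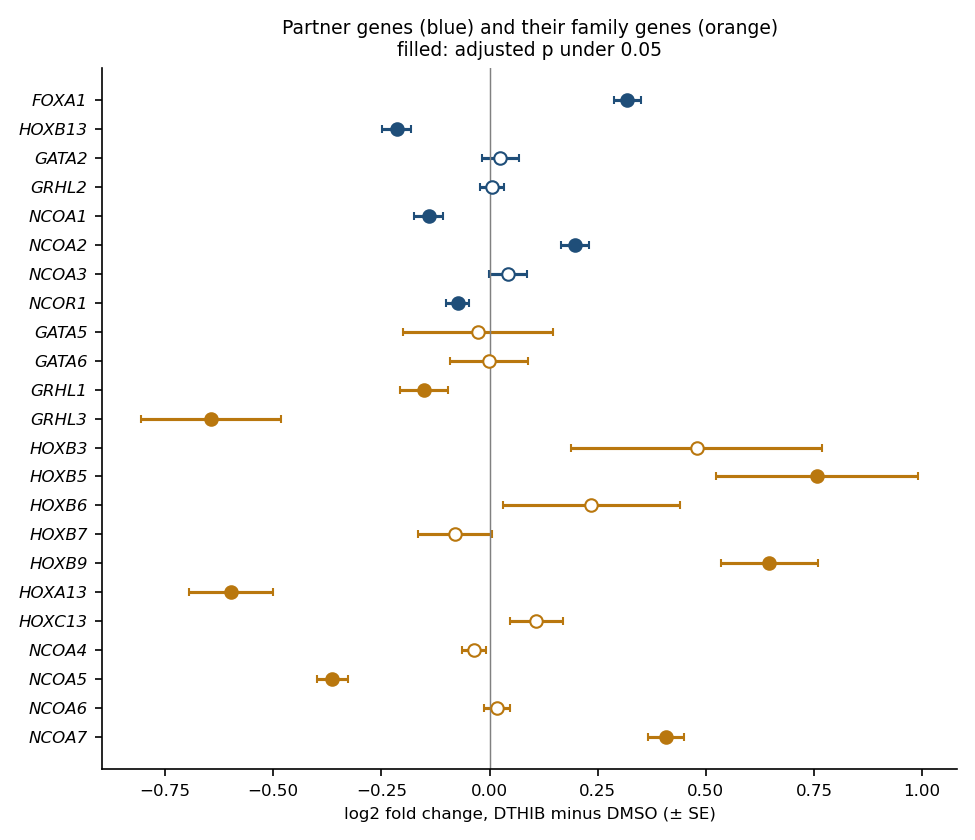
Log2 fold change, DTHIB minus DMSO (horizontal axis), with its standard error, for the 8 members (blue) and the tested genes of their families (orange). Filled symbols have an adjusted p under 0.05, and the members span -0.22 for HOXB13 to 0.32 for FOXA1.

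Divided by exon length, the transcription factors stood above the coregulators. In DMSO the levels, in normalized counts per kilobase, were 3334 ± 146 for FOXA1, 3056 ± 33.4 for HOXB13, 1732 ± 128 for GATA2 and 1198 ± 33.1 for GRHL2 (SD, n = 4). NCOR1 followed at 488.6 ± 9.13, then NCOA1 at 422.5 ± 6.48, NCOA2 at 187.7 ± 3.76 and NCOA3 at 125.3 ± 5.14 (SD, n = 4). The order was the same in DTHIB, and in neither group did neighbours in this order overlap. By exon length, the mean level per kilobase of FOXA1 was 1.09 times that of HOXB13 in DMSO and 1.58 times in DTHIB, with FOXA1 at 4153 ± 69.8 and HOXB13 at 2635 ± 144 (SD, n = 4). By the length of the longest transcript the same ratios were 1.52 and 2.19, so the distance between neighbours depends on the length used. GATA2 and GRHL2 stood at 1759 ± 45.2 and 1202 ± 15.2 normalized counts per kilobase of exon in DTHIB.

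**Figure D3:**
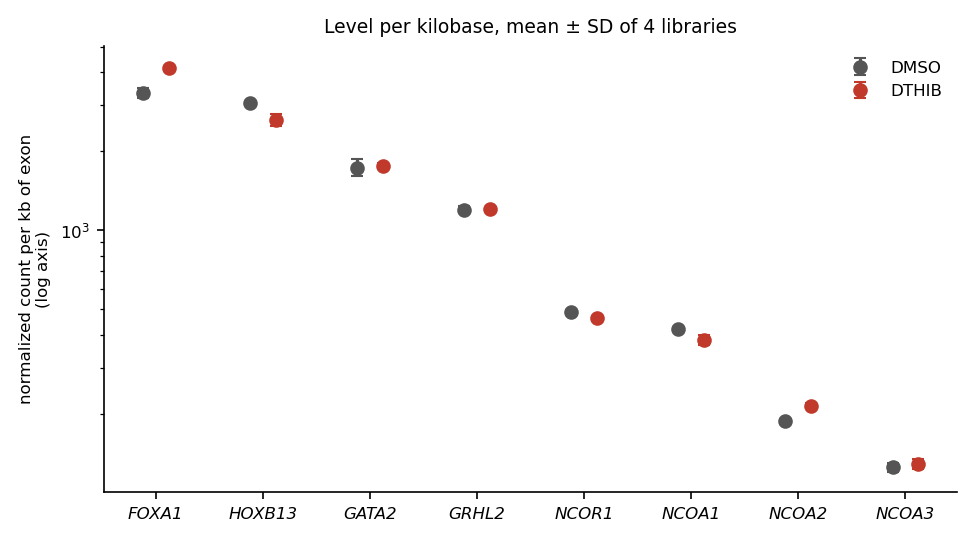
Level of each member in normalized counts per kilobase of exon (logarithmic axis), mean and SD of 4 DMSO and 4 DTHIB libraries. The 8 genes keep 1 order in both groups, from FOXA1 at 3334 in DMSO down to NCOA3 at 125.3.

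The p160 coactivators were also set against each other. As shares of the summed level per kilobase of the 3 genes, NCOA1 made up 57.4% ± 0.707 in DMSO and 52.7% ± 1.05 in DTHIB (SD, n = 4). The share of NCOA2 was 25.5% ± 0.218 and 29.6% ± 1.0, and that of NCOA3 17.0% ± 0.548 and 17.7% ± 0.624. These shares restate the fold changes above on a scale that does not depend on library size.

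The corepressor was compared with each coactivator as a log2 ratio of normalized counts within a library, which also does not depend on library size. NCOR1 over NCOA2 was 1.97, 1.96, 2.07 and 2.00 in DMSO and 1.73, 1.76, 1.73 and 1.70 in DTHIB. The groups did not overlap, and the difference was -0.27 (exact two-sided permutation p = 0.0286, the smallest that 4 against 4 allows, and 0.0857 after adjustment over 3 ratios). NCOR1 over NCOA3 went from 2.84 ± 0.0683 to 2.72 ± 0.0628 (SD, n = 4 each; exact permutation p = 0.0571, adjusted 0.0857). NCOR1 over NCOA1 went from 1.04 ± 0.0448 to 1.11 ± 0.0498 (SD, n = 4 each; exact permutation p = 0.143, adjusted 0.143). At that smallest p, 1 ratio alone cannot pass after adjustment over 3, and none of the 3 passed.

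Among 25 genes of the same families, 15 reached the tested minimum mean of 10 normalized counts, and 7 passed, 3 higher and 4 lower. Their median log2 fold change was -0.0019, and 46.7% were called, against 64.6% of all genes. The other 10 were too low to test, and FOXA2 and HOXB1 were listed at 0 in all 8 libraries. FOXA3, the remaining FOXA gene, had at most 3.13 normalized counts in any library.

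Within the GATA family, GATA2 made up 96.3% ± 0.245 of the summed level per kilobase in DMSO and 96.2% ± 0.42 in DTHIB (SD, n = 4). GATA6 stood at 198 ± 10.1 normalized counts in DMSO and 198 ± 22.7 in DTHIB and did not pass (limma adjusted p = 0.987). GATA5 stood at 33.5 ± 4.11 and 32.8 ± 4.10 and did not pass (limma adjusted p = 0.902). GATA3, the GATA factor of mammary luminal cells, was below the filter, with means of 1.94 and 6.62.

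The other grainyhead genes were lower in DTHIB. GRHL3, an epidermal barrier regulator, had 45.0, 59.3, 52.1 and 50.1 normalized counts in DMSO and 36.5, 35.4, 31.0 and 27.9 in DTHIB, and its log2 fold change was -0.64 (limma: SE 0.16, adjusted p = 0.00219). Its groups did not overlap. GRHL1 went from 799 ± 28.5 to 721 ± 62.8 (SD, n = 4 each), a log2 fold change of -0.15 (limma adjusted p = 0.0263). Its groups overlapped, and the call was lost with quantile normalization (0.247), with DESeq2 (0.0567), after removal of the length and GC trend (0.228) and without DMSO replicate 1, 2 or 3 or DTHIB replicate 2, 3 or 4 (0.0522 to 0.0827). GRHL2 itself made up 91.3% ± 0.49 of the family's level per kilobase in DMSO and 92.4% ± 0.519 in DTHIB.

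Among the paralogs of HOXB13 in the posterior HOX group, HOXA13 fell and HOXC13 did not pass. HOXA13, known for limb and urogenital development, had 129, 136, 147 and 130 normalized counts in DMSO and 87.5, 86.5, 88.9 and 93.8 in DTHIB. Every DTHIB value was below every DMSO value, with a log2 fold change of -0.60 (limma: SE 0.098, adjusted p = 4.49e-05). HOXC13, a hair and nail regulator, went from 514 ± 43.8 to 553 ± 20.9 (SD, n = 4 each; limma log2 fold change 0.11, adjusted p = 0.135).

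In the rest of the HOXB cluster, 5 genes were tested and the 2 that passed rose while HOXB13 fell. Over all tested genes, 64.6% passed. HOXB9 had 83.3, 79.4, 85.9 and 84.2 normalized counts in DMSO and 145, 148, 115 and 119 in DTHIB, a log2 fold change of 0.65 (limma: SE 0.11, adjusted p = 8.05e-05). HOXB5 went from 17.5 ± 3.10 to 30.7 ± 8.60 (SD, n = 4 each), a log2 fold change of 0.76 (limma: SE 0.23, adjusted p = 0.0092). The groups of both genes did not overlap. HOXB3, HOXB6 and HOXB7 had log2 fold changes of 0.48, 0.23 and -0.08 and did not pass (limma adjusted p = 0.157, 0.328 and 0.424). Without DMSO replicate 2, HOXB3 passed at 0.70 (limma adjusted p = 0.0466), while without DMSO replicate 3 it stood at 0.28 (adjusted p = 0.414). Per kilobase in DMSO, HOXB7 (103) and HOXB9 (32.2) were far below HOXB13.

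The further NCOA genes are named as coactivators but are not p160 proteins. NCOA7 rose from 865 ± 28.9 to 1148 ± 37.4 normalized counts (SD, n = 4 each), a log2 fold change of 0.41 (limma adjusted p = 1.86e-07). NCOA5 fell from 1725 ± 12.5 to 1341 ± 54.2 (SD, n = 4 each), a log2 fold change of -0.36 (limma adjusted p = 1.56e-07). The groups of NCOA7 and of NCOA5 did not overlap. NCOA4, which also carries ferritin to lysosomes, and NCOA6 did not pass, with log2 fold changes of -0.04 and 0.02 (limma adjusted p = 0.28 and 0.645). Quantile normalization made NCOA6 a call, at 0.10 (adjusted p = 0.00725), while removal of the length and GC trend turned both signs, to 0.06 for NCOA4 and -0.06 for NCOA6.

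Of 7 histone-modifying partners of the p160 coactivators, 2 rose, 1 fell and 4 did not pass, a share of 42.9% called beside 64.6% of all genes. EP300, the acetyltransferase p300, rose from 2810 ± 101 to 3767 ± 286 normalized counts (SD, n = 4 each), a log2 fold change of 0.42 (limma adjusted p = 4.49e-07). Its paralog CREBBP rose from 1930 ± 38.9 to 2245 ± 114 (SD, n = 4 each; limma log2 fold change 0.22, adjusted p = 8.94e-05), and that call was lost after removal of the length and GC trend (0.06, adjusted p = 0.0947). KAT2A, the acetyltransferase GCN5, fell from 4523 ± 67.8 to 4142 ± 151 (SD, n = 4 each; limma log2 fold change -0.13, adjusted p = 0.00168), and quantile normalization ended that call (0.344). KAT2B had a log2 fold change of -0.10 and did not pass (limma adjusted p = 0.104). The median of the 7 genes was -0.03.

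Of 15 tested genes of NCOR1 and other corepressor complexes, 9 fell, 3 rose and 3 did not pass, with a median log2 fold change of -0.19 against -0.01 over all genes. Of the tested genes, 12 (80%) were called, beside 64.6% of all genes (31.0% higher and 33.7% lower). Within the NCOR1 complex itself, whose core genes were singled out after their values were seen, the members moved in both directions. TBL1XR1, an exchange factor of the complex, rose from 12894 ± 216 to 16804 ± 417 normalized counts (SD, n = 4 each), a log2 fold change of 0.38 (limma adjusted p = 2.02e-09). Its paralog TBL1X rose by a log2 fold change of 0.18 (limma adjusted p = 0.000438). HDAC3, the catalytic deacetylase, fell from 1933 ± 75.3 to 1567 ± 62.9 (SD, n = 4 each), a log2 fold change of -0.30 (limma adjusted p = 3.38e-06). GPS2, a small subunit with 98.1 ± 15.3 and 67.2 ± 4.04 normalized counts, had a log2 fold change of -0.53 (limma adjusted p = 0.00182). CORO2A did not pass, at 0.04 (limma adjusted p = 0.284), but did after quantile normalization (0.12, adjusted p = 0.00225).

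The deacetylases and demethylase of other corepressor complexes on the list fell. HDAC1 went from 12799 ± 162 to 10283 ± 404 normalized counts and HDAC2 from 6517 ± 110 to 5212 ± 272 (SD, n = 4 each), both with a log2 fold change of -0.32 (limma adjusted p = 7.64e-08 and 2.96e-07). KDM1A, the histone demethylase LSD1, went from 5097 ± 82.1 to 3973 ± 200 (SD, n = 4 each), a log2 fold change of -0.36 (limma adjusted p = 8.43e-08). NR0B1 was listed at 0 in every library.

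**Figure D4:**
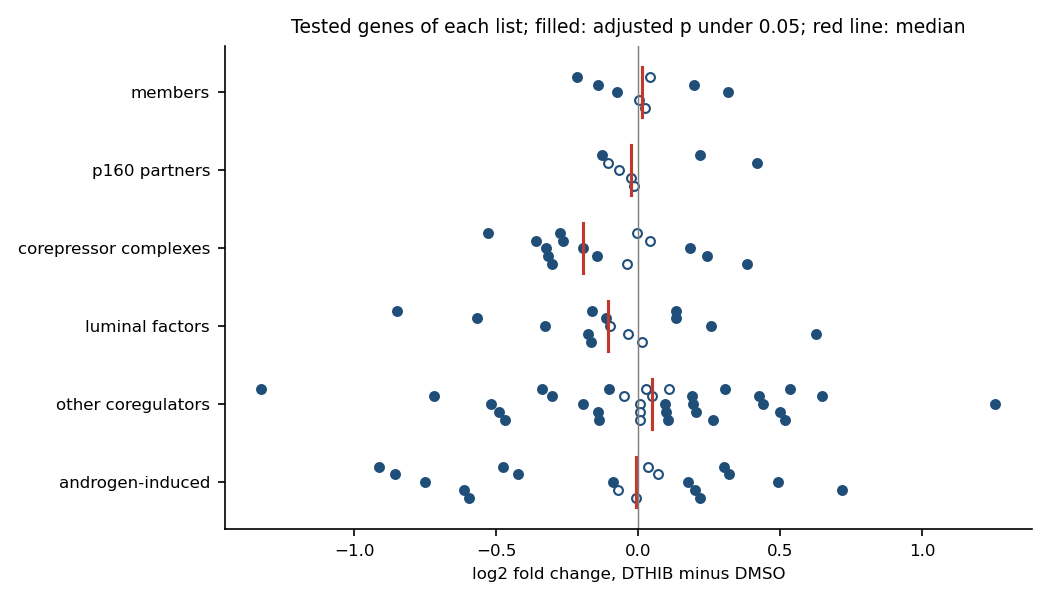
Log2 fold change, DTHIB minus DMSO (horizontal axis), of every tested gene among the members and the 5 lists of partner and target genes, with filled points for an adjusted p under 0.05 and a red line at each list's median. The corepressor list has the lowest median, at -0.19, and genes of every list lie on both sides of 0.

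Of 14 tested further transcription factors of luminal prostate cells, 4 rose, 7 fell and 3 did not pass, with a median log2 fold change of -0.11. In all 78.6% were called, beside 64.6% of all genes (31.0% higher and 33.7% lower). SOX9, a progenitor-associated factor, fell from 495 ± 15.6 to 274 ± 3.97 normalized counts (SD, n = 4 each), a log2 fold change of -0.85 (limma adjusted p = 6.66e-10). MEIS1, which can partner with HOX proteins including HOXB13, fell from 441 ± 16.4 to 298 ± 20.2 (SD, n = 4 each; limma log2 fold change -0.57, adjusted p = 6.37e-07). EHF, an epithelial ETS factor, fell by 0.33 on the log2 scale (limma adjusted p = 2.69e-08), or by 0.22 after removal of the length and GC trend. ELK4, another ETS factor, rose from 6770 ± 222 to 8096 ± 284 (SD, n = 4 each; limma log2 fold change 0.26, adjusted p = 2.12e-06). ETV1 and MEIS2 were below the filter.

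Of 33 further coregulators of the androgen receptor, 15 rose, 11 fell and 7 did not pass, with a median log2 fold change of 0.05. That is 78.8% called, where 64.6% of all genes were (31.0% higher and 33.7% lower). NSD2, a histone H3 methyltransferase, fell from 7873 ± 177 to 4787 ± 183 normalized counts (SD, n = 4 each), a log2 fold change of -0.72 (limma adjusted p = 2.94e-12). PARP1, the DNA damage sensor, fell by 0.47 on the log2 scale (limma adjusted p = 8.31e-10). ZMIZ1 rose from 5443 ± 317 to 7779 ± 252 (SD, n = 4 each; limma log2 fold change 0.52, adjusted p = 3.37e-09). KDM5B, a histone demethylase, rose from 2807 ± 38.8 to 3810 ± 157 (SD, n = 4 each; limma log2 fold change 0.44, adjusted p = 3.51e-09). PPARGC1A, the mitochondrial coactivator PGC-1α, fell from 55.5 ± 6.12 to 21.6 ± 3.44 (SD, n = 4 each; limma log2 fold change -1.33, adjusted p = 4.85e-06). TGFB1I1 had few counts, 8.48 ± 7.96 and 17.9 ± 6.15, with overlapping groups (limma log2 fold change 1.26, adjusted p = 0.0161), and its call was lost without DMSO replicate 1 (0.059) or without DTHIB replicate 1 (0.0592).

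Of 19 androgen-induced genes, 7 rose, 8 fell and 4 did not pass, with a median log2 fold change of -0.0063. In all 78.9% were called, and all genes likewise moved in both directions, with 64.6% called (31.0% higher and 33.7% lower). NDRG1 and FKBP5, the latter a chaperone partner of steroid receptors, fell by 0.91 and 0.61 on the log2 scale (limma adjusted p = 1.62e-12 and 3.86e-12). PMEPA1 rose from 9132 ± 393 to 15030 ± 439 normalized counts (SD, n = 4 each; limma log2 fold change 0.72, adjusted p = 5.67e-12). PLPP1, a lipid phosphatase, fell from 11986 ± 481 to 7926 ± 237 (SD, n = 4 each; limma log2 fold change -0.60, adjusted p = 5.59e-11).

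Several members overlap another annotated gene on the opposite strand, and the strand setting of the authors' counting was not given in the sources used here. The values of both genes of such a pair are therefore uncertain. TTC6, which overlaps FOXA1 by 213 bases, 16 of them exonic in both, fell from 2846 ± 156 to 1923 ± 136 normalized counts (SD, n = 4 each; limma log2 fold change -0.57, adjusted p = 1.78e-08) while FOXA1 rose. GATA2-AS1, which shares no exonic base with GATA2, rose from 3034 ± 275 to 3587 ± 92.3 (SD, n = 4 each; limma log2 fold change 0.25, adjusted p = 0.000354). AP001207.3, with 50 exonic bases shared with GRHL2, rose from a mean of 20.4 to 68.2 (limma log2 fold change 1.71, adjusted p = 7.36e-07). These 3 neighbours had groups that did not overlap, as did TTC19, described below, while the groups of PIGL and AC002553.1 overlapped. Over all tested genes, 57.9% had groups that did not overlap.

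NCOR1 overlaps 3 tested genes on the other strand. TTC19, which shares no exonic base with it, rose from 3020 ± 79.8 to 3575 ± 191 normalized counts (SD, n = 4 each; limma log2 fold change 0.24, adjusted p = 2.41e-05), and the log2 fold change was 0.36 after removal of the length and GC trend. PIGL, with 321 shared exonic bases, had a log2 fold change of 0.21 (limma adjusted p = 0.0312), and its call was lost with quantile normalization (0.0721) and without DMSO replicate 3 or 4 or DTHIB replicate 2, 3 or 4 (0.051 to 0.10). AC002553.1 had a log2 fold change of 0.64 and did not pass (limma adjusted p = 0.0545), but it passed with edgeR (0.0406) and without DMSO replicate 1 (0.0427), DTHIB replicate 1 (0.0337) or DTHIB replicate 3 (0.0276). SULF2, opposite NCOA3, was below the filter. The NCOR1 pseudogenes NCOR1P1 to NCOR1P4 had at most 25.8 normalized counts in any library, against at least 7002 for NCOR1.

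The genes most alike to each transcription factor were taken as those with the highest Pearson r of log2 values over the 8 libraries, among 11649 named genes with a mean of at least 100 normalized counts. They were ADRA2A and EEIG1 for FOXA1 (both r = 0.998), and CNP and NIBAN2 for HOXB13 (r = 0.994 and 0.992). For GATA2 they were STK25 and CAMK2G (r = 0.948 and 0.918), and for GRHL2 SELENOS and SIPA1 (r = 0.939 and 0.911). Quantile normalization moved the r of STK25 with GATA2 to 0.73, below CAMK2G at 0.919, and that of CNP with HOXB13 to 0.962. The 8 libraries share 2 treatment groups and their size factors, so these values are descriptions only.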

How the data were processed

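Poly(A) RNA-seq was compared between 4 DMSO and 4 DTHIB libraries of C4-2 cells. Per the submitters' processing notes, the tools were featureCounts 1.6.3, HISAT2 2.1.0, DESeq2 2.11.40.2, Trimmomatic 0.36.5 and StringTie 1.3.4, and the build GRCh38. The annotation release, strand setting and handling of reads with several positions were not given in the sources used here. The authors deposited a signal table of gene counts divided by size factors, and a table of comparisons with log2 fold changes, their standard errors, Wald statistics (a score) and p-values. Ensembl identifiers were matched to symbols for 41967 of 58884 genes and to GENCODE 29 positions for 58611.

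Normalized counts were tested as log2(count + 1) with limma 3.58.1 (R 4.3.3; lmFit and trended eBayes, a two-sided test) over 17194 genes with a mean of at least 10, with Benjamini-Hochberg adjustment at 0.05. Whole reads were recovered from the deposited counts: 100% of values were whole within 0.01, and edgeR 4.0.16 called 11130 genes on them and DESeq2 1.42.0 called 10283, against 11110 with limma. Totals were 27229291 to 30926053 reads, and the lowest library value of any member is 1013 (NCOA3). How much of each member's spread between libraries was counting error was not tested. The steps were tested on simulated data. Alternatives were pseudocounts of 0.5 and 5, no filter, a mean of at least 50, TMM, quantile normalization, edgeR, DESeq2, a replicate block and leaving out each library. Removal of each library's trend with length and GC (values for 99.8% of tested genes) and levels per kilobase of the longest transcript were chosen after seeing the data.

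Members and gene lists were chosen with earlier results of these data known. The text names all members, tested family genes, in each other list up to 4 genes with the smallest adjusted p and any called gene changed at least 2-fold, opposite-strand neighbours, and the 2 genes most alike to each transcription factor. The lists were family genes, p160 partners, corepressor genes, luminal transcription factors, other coregulators, androgen-induced genes and cell type markers. The receptor's own gene and a few genes first placed on these lists are not reported here, and the lists' counts leave them out. Promoter windows came from RefSeq. Figures were drawn with matplotlib 3.10.9.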

Additional observations from a re-analysis of the deposited data

Results flagged for a closer look

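Of 116 groups of 4 library values examined (55 genes and 3 ratios in both conditions), 4 held a library far from the other 3, and chance marks about 1 in 20 such groups. None of the 4 is a group of values of a member gene. GATA5 stood at 39.56 normalized counts in DMSO replicate 3, against 30.65 to 32.07 in the other DMSO libraries, and at 38.95 in DTHIB replicate 3, against 30.23 to 31.26. HOXB3 stood at 25.93 in DTHIB replicate 4, against 16.68 to 17.98. NCOA6 stood at 2749 in DTHIB replicate 1, against 2874 to 2892.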

How the results depend on the processing

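The 5 member calls kept their direction under every alternative run, and FOXA1, HOXB13 and NCOA2 also kept their calls in all of them. Quantile normalization moved NCOA1 to -0.057 and NCOR1 to -0.017, which ended both calls, and GRHL2 to 0.067 and NCOA3 to 0.116, which made both calls. NCOR1 also lost its call with no filter (-0.073), edgeR (-0.059), DESeq2 (-0.059) and 2 of the fits without 1 library. Leaving out each library gave ranges of -0.0845 to -0.0626 for NCOR1, -0.0183 to 0.0669 for GATA2 and -0.0112 to 0.0178 for GRHL2, the last pair changing sign, and 4 to 5 members called. The causes of these changes were not tested. Among genes that did not pass, GATA5 ranged from -0.109 to 0.0541 and GATA6 from -0.0533 to 0.0682 without 1 library, and GATA6 also changed sign with TMM (0.012), edgeR (0.017) and DESeq2 (0.017). Removal of the length and GC trend reversed NCOA4 (0.064) and NCOA6 (-0.055). The number called in each gene list stayed within 1.5 times its reported value in every alternative. Levels per kilobase of the longest transcript kept the order of the 8 members.

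No pairing by replicate number was seen: deviations of same-numbered libraries correlated at -0.0715, 0.0107, 0.0144 and 0.00179, and not every library correlated best with its own number. The labels do not say whether same-numbered libraries were handled together. With the number as a block, 11058 genes were called and all 5 member calls stood. The block left the difference in NCOR1 over NCOA2 at -0.27 (exact sign-flip test, adjusted p = 0.188), a test whose smallest p with 4 pairs is 0.125. Depth limits TGFB1I1, GPS2, the lower HOXB genes and the antisense neighbours with few counts.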
